A study of Mus musculus with 6 samples.

Results

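Matrix metalloproteinases (MMPs), the related ADAMTS proteinases, the ADAMTS-like proteins and the tissue inhibitors of metalloproteinases (TIMPs) were examined in MC3T3-E1 cells, a mouse calvarial pre-osteoblast line, with and without metformin. Members were the protein-coding genes of the deposited table whose symbols name one of these families. This gave 50 of the 54532 genes in the table, 22 MMPs, 19 ADAMTS genes, 5 ADAMTS-like genes and 4 TIMPs. Mmp1a was not among them, because the table lists it as a polymorphic pseudogene. The control cells (3 samples) were kept for 3 days in osteogenic medium, which contains β-glycerophosphate, ascorbic acid and dexamethasone. The treated cells (3 samples) were kept for the same 3 days in that medium with 0.2 mM metformin, a biguanide that lowers blood glucose. Dose and time were taken from the text of the study, as the sample labels are silent on both. Only this cell line was sequenced. The methods of the study call the samples of a group biological replicates without saying whether they came from separate cultures, so the p-values measure the spread between these samples.

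MMPs are zinc endopeptidases that are made as inactive precursors and together can cleave most proteins of the extracellular matrix. ADAMTS proteinases are secreted relatives with thrombospondin repeats that process procollagens and cleave proteoglycans, whereas ADAMTS-like proteins carry the repeats without a catalytic domain and bind the fibrillin microfibril network. TIMPs occupy the active site of these enzymes, and the balance between both sides is known to bear on how fast collagen matrix is broken down in bone.

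The values are FPKM, that is, reads of a gene scaled by gene length and by library. The whole reads behind them could be recovered and were 18399861 to 22111790 per sample. Control replicate 1 stood apart, with a Pearson correlation across genes of 0.9524 to 0.96 with the other controls, which had 0.988 with each other. Those other controls had 0.949 to 0.9532 with the samples with metformin, close to their values with control replicate 1. Where a call depends on control replicate 1, the result without it is therefore given too. All 7 osteoblast markers were detected, with Spp1 at 7703 ± 989 FPKM (SD, n = 3) in controls and Alpl at only 3.16 ± 0.60. Endothelial markers summed to at most 0.121 FPKM in any sample, the muscle regulators Myod1 and Myog had 0 reads while Des, on the same list, had 1.20 to 2.38 FPKM. Of the 7 myeloid and osteoclast markers Acp5 and Calcr had 0 reads, Adgre1, Csf1r and Ptprc at most 8 in a sample, Cd68 had 1.04 to 2.15 FPKM and Ctsk 148.6 to 270.7 FPKM.

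Of the 50 members, 26 had a mean of at least 0.5 FPKM and were tested with limma-trend on log2(FPKM + 1) across 12681 genes, with Benjamini-Hochberg adjustment over all of them and 0.05 as the threshold. All log2 fold changes given are on this log2(FPKM + 1) scale, which understates changes of genes at low FPKM. With metformin 8 tested members were higher, against 13.2% of all tested genes, and 5 were lower, against 9.28%. The median log2 fold change of the 26 tested members was 0.030, beside 0.0053 for all tested genes. The 8 that rose were 3 proteoglycan-cleaving ADAMTS genes, the procollagen proteinase gene Adamts2, the ADAMTS-like genes Adamtsl1 and Adamtsl3, Mmp16 and Timp3. The 5 that fell were the collagenases Mmp13 and Mmp8 and the inhibitors Timp1, Timp2 and Timp4. Among tested members the groups did not overlap for 9 that were higher and 6 that were lower with metformin, where 23.6% and 20.5% of all tested genes behaved so (15 members in either direction, against 44.1%). Without control replicate 1 there were 10 higher (23.4% of all tested genes) and 8 lower (20.4%). With a GC correction there were 8 higher (16.3%) and 8 lower (19.2%), and in a fit blocked by replicate number 5 higher (9.16%) and 5 lower (5.5%). The calls of Adamts1, Adamts2 and Mmp16 were those lost in the blocked fit, and they were also lost without the filter on low values. Timp4 and Adamtsl1 each passed the limit of 0.5 FPKM through the group in which they were high. In RNA from whole cultures, fewer cells that express a gene and less of its RNA per cell cannot be told apart.

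**Figure D1:**
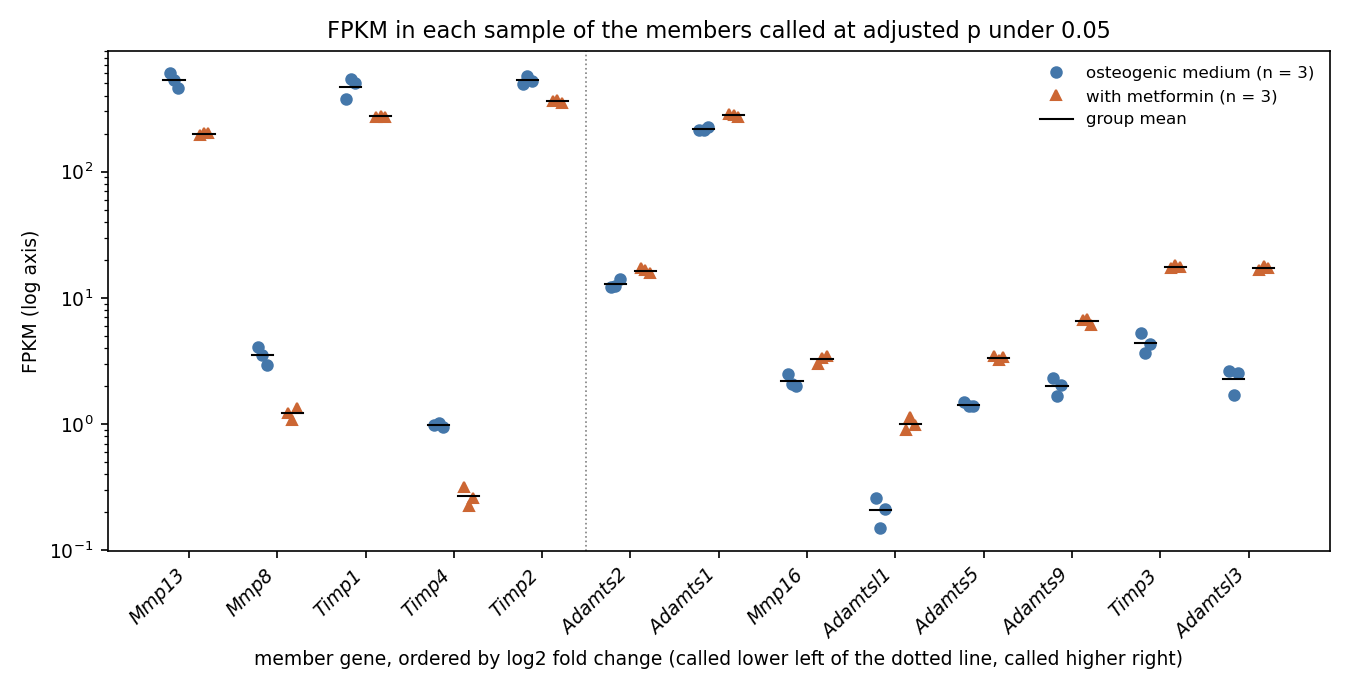
FPKM on a log axis of each member called at an adjusted p under 0.05, with circles for the 3 control samples, triangles for the 3 samples with metformin and a line at each group mean. The 3 samples with metformin lie below the 3 controls for the 5 genes on the left and above them for the 8 on the right, and on this log axis Adamtsl3 and Adamtsl1 have the widest gaps between group means of those that rose.

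Both tested collagenase genes, Mmp13 and Mmp8, fell. Mmp13, which encodes the main interstitial collagenase of mouse bone (chromosome 9, 7272514 to 7283331), had 599, 533 and 462 FPKM in the control samples and 194, 203 and 201 FPKM with metformin. Every control lay above every sample with metformin, and the controls were spread over a wider range. The mean went from 531 ± 68.9 FPKM (SD, n = 3) to 199 ± 4.55, equal to -1.40 on the log2 scale with a standard error (SE) of 0.12 (adjusted p = 0.000415, limma-trend). Mmp8, the collagenase best known from neutrophils (chromosome 9, 7558456 to 7568485), was far lower per length, at 4.09, 3.54 and 2.96 FPKM in controls and 1.23, 1.08 and 1.33 FPKM with metformin. Its groups were separate as well, with a log2 fold change of -1.03 (SE 0.12, adjusted p = 0.00149), and both genes kept their call whichever of the 6 samples was omitted. The mean FPKM in controls was 2.91 times that with metformin for Mmp8 and 2.67 times for Mmp13, so the 2 log2 values do not rank their falls. The third collagenase gene among the members, Mmp1b, had at most 3 reads in a sample.

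Of the 7 osteoblast markers, all tested, 2 fell and 1, Col1a1, rose, against 9.28% and 13.2% of all tested genes. Bglap was also called lower (log2 fold change -0.91, adjusted p = 0.00314) and Sp7 higher (0.27, adjusted p = 0.0230) when control replicate 1 was omitted. The markers summed to 9048 to 10750 FPKM in controls and 5415 to 5660 FPKM with metformin, of which Spp1 was 7703 ± 989 and 2704 ± 23.4 FPKM. Spp1, which encodes osteopontin, fell by 1.502 on the log2 scale (adjusted p = 0.000471), Ibsp, which encodes bone sialoprotein, fell by 1.60 (adjusted p = 0.000578), and Col10a1, the collagen of hypertrophic chondrocytes, fell by 1.91 (adjusted p = 0.000206). The mean FPKM in controls was 2.85 times that with metformin for Spp1, 3.07 times for Ibsp and 14.3 times for Col10a1. The log2(FPKM + 1) scale thus understates the fall of Col10a1, which was at low FPKM with metformin. The call of Spp1 was lost without the filter on low values (adjusted p = 0.198), and Col10a1 passed the FPKM limit through the controls. Col10a1 was the 1 of 3 tested chondrocyte markers called with all samples, and without control replicate 1 Sox9 (-0.42, adjusted p = 0.00190) and Col2a1 (-0.32, adjusted p = 0.0198) were called lower too. The summed chondrocyte markers were 29.9 to 43.5 FPKM in controls and 29.0 to 30.8 FPKM with metformin, and Acan, a defining marker, was at most 0.013 FPKM on average in either group. The myeloid and osteoclast list summed to 244.8 to 272.6 FPKM and to 149.8 to 162.9 FPKM, which was nearly all Ctsk, and both of its tested genes, Ctsk and Cd68, fell. The 1 tested adipocyte marker was not called. The part of any such cells in the fall of Mmp13 was not tested.

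Mmp13 and Mmp8 lie in the MMP gene cluster on chromosome 9, which holds 9 of the 50 members. In the order of the chromosome these are Mmp13, Mmp12, Mmp1b, Mmp3, Mmp10, Mmp8, Mmp27, Mmp20 and Mmp7. Only Mmp13 and Mmp8 passed the FPKM limit, and Mmp13 made up 99.2% of the summed FPKM of the cluster in controls and 99.3% with metformin. Mmp10, a stromelysin that can activate procollagenases, had 13, 11 and 19 reads in controls and 2, 1 and 2 reads with metformin. Without the filter on low values it was lower, with a log2 fold change of -0.44 on the log2(FPKM + 1) scale (SE 0.070, adjusted p = 0.0172), where 3.56% of 24801 genes were called lower. Mmp3, the other stromelysin of the cluster, had 3, 4 and 0 reads in controls and 0, 0 and 1 with metformin, which is at the limit of what this depth can show. Mmp27 and Mmp1b had at most 3 reads in a sample, Mmp12 and Mmp20 had at most 1, and Mmp7 had 0 in every sample, where a count of 0 allows for up to 3 reads per sample by counting error alone.

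**Figure D2:**
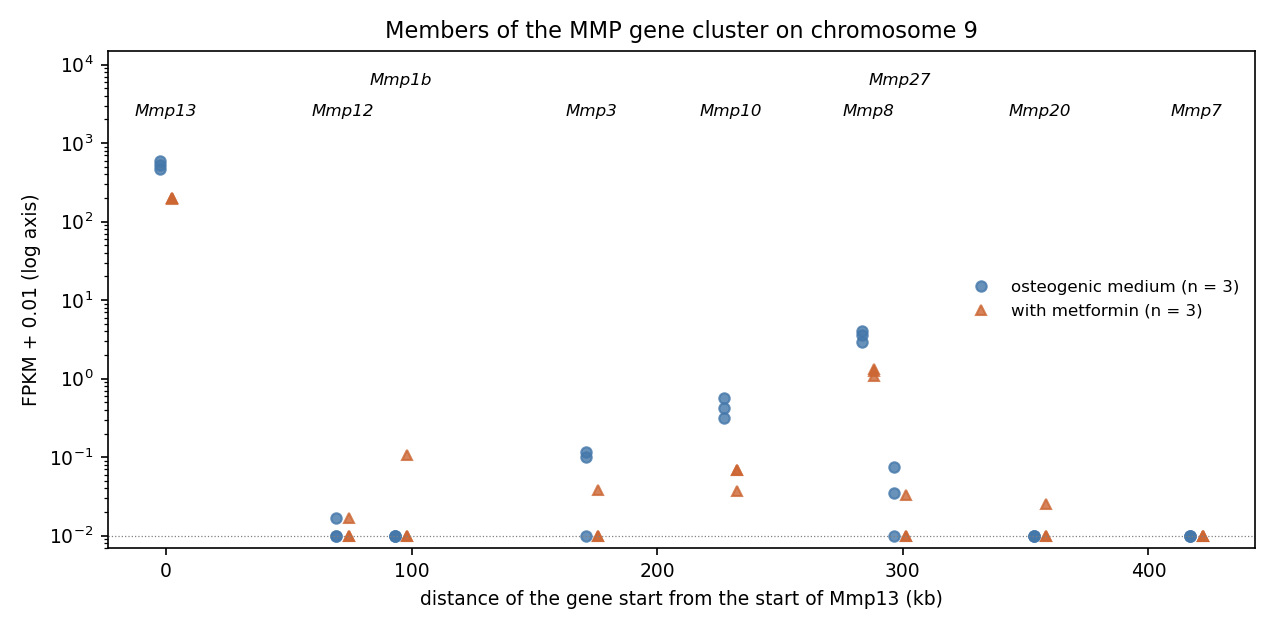
FPKM + 0.01 on a log axis of the 9 members in the chromosome 9 cluster, placed by the distance of their first coordinate from that of Mmp13 in kb, with circles for 3 controls and triangles for 3 samples with metformin. Mmp13, Mmp10 and Mmp8 are the genes whose groups are apart, with metformin below, and the dotted line marks 0 FPKM.

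The 250 bases before the annotated start of cluster genes are shown because genes of this cluster are textbook targets of AP-1 (Fos and Jun dimers) and Mmp13 of Runx2. The windows of Mmp13, Mmp10 and Mmp8, and of Timp3 and Adamtsl3, the members with the highest log2 fold changes on the log2(FPKM + 1) scale, were taken from RefSeq on GRCm38.p6. Capitals mark the AP-1 letters TGANTCA and the RUNX letters TGTGGT or ACCACA, searched on both strands. Each sequence runs from 5′ to 3′ along its gene and ends at the base before the RefSeq start, from which distances are given. That start can differ from the first coordinate in the deposited table. The windows of Mmp10 and Mmp8 end short of that coordinate, and the window of Timp3 runs past it.
Mmp13, chr9:7272264-7272513, plus strand: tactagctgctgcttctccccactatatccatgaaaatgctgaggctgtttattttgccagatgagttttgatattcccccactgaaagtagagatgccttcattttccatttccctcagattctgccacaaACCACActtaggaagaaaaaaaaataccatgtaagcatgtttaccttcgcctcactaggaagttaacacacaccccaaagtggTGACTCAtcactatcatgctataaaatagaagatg
Mmp10, chr9:7502092-7502341, plus strand: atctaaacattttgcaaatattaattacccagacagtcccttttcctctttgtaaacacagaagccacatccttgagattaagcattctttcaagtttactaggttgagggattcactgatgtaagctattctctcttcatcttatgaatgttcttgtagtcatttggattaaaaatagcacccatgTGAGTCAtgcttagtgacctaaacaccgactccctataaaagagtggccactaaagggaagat
Mmp8, chr9:7558179-7558428, plus strand: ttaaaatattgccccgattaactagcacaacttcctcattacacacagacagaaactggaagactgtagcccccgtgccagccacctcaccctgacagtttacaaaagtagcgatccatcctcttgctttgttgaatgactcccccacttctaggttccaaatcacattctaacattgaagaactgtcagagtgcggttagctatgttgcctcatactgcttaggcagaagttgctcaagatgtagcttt
Timp3, chr10:86300162-86300411, plus strand: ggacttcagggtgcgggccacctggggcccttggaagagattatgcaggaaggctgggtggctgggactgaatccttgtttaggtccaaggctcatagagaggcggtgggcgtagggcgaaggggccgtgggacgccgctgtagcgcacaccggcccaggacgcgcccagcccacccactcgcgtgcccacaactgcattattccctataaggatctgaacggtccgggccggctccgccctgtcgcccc
Adamtsl3, chr7:82335444-82335693, plus strand: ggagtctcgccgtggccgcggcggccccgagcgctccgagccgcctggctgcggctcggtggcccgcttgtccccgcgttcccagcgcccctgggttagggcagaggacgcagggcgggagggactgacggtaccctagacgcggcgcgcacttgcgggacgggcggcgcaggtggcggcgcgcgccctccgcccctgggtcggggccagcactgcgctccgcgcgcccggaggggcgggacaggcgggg
In the Mmp13 window the AP-1 letters began 35 bases and the RUNX letters 118 bases before the start, and the matches did not overlap. In the Mmp10 window the AP-1 letters began 63 bases before the start. No letters of either motif were found in the windows of Mmp8, Timp3 and Adamtsl3. Of the 50 members 35 had a window, and 7 of these held the AP-1 letters, all of them in the chromosome 9 cluster (Mmp13, Mmp10, Mmp3, Mmp1b, Mmp20, Mmp12 and Mmp7). The RUNX letters were in the windows of 6 of the 35. For comparison, 6.75% of all 32851 RefSeq windows held the AP-1 letters and 14% the RUNX letters. These shares count single windows, whereas a member was counted if any of its windows held a match (38 windows for the 35 members). Of the 7 members with the AP-1 letters 6 were not tested, and Mmp13 was called lower. G and C made up 65.6% of the Timp3 window and 40.4% of the Mmp13 window.

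Of the factors that bind these letters, only Runx2 and genes of the Fos and Jun families were listed. With all samples these were higher or not called. All 8 genes of the list of Runx2 and AP-1 factors were tested, and 4 rose, namely Fos, Fosb, Jun and Fosl2, while 0 fell, against 13.2% and 9.28% of all tested genes. Fos had 6.92, 12.04 and 15.1 FPKM in controls and 118, 103 and 86.0 FPKM with metformin (log2 fold change 3.11, adjusted p = 0.000444), and Jun had 22.9, 29.9 and 38.5 FPKM against 75.4, 69.9 and 60.4 FPKM (1.17, adjusted p = 0.00645). Thus the groups were apart for both, with metformin above. Runx2, the osteoblast master regulator, had 34.1, 28.7 and 28.6 FPKM in controls and 26.9, 27.4 and 25.8 FPKM with metformin, a log2 fold change of -0.18 with a 95% confidence interval that includes 0 (adjusted p = 0.243). Junb, Fosl1 and Jund were not called, with log2 fold changes of 1.497, 0.85 and 0.28. The groups were also apart for Runx2, with metformin below, and for Junb and Fosl1, with metformin above. Among all tested genes 23.6% were apart with metformin above and 20.5% with metformin below. Without control replicate 1 Junb and Fosl1 were called higher and Jund lower.

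All 4 TIMPs passed the test, and they moved in both directions. Timp1, a secreted inhibitor that also has growth-factor-like activity (chromosome X, 20870166 to 20874735), had 376, 541 and 501 FPKM in controls and 272, 278 and 271 FPKM with metformin. Control replicate 1 was the lowest control and still lay above the samples with metformin. Its log2 fold change was -0.77 (SE 0.15, adjusted p = 0.0120), and -0.93 without control replicate 1 (adjusted p = 0.000153). Timp2, which inhibits MMPs and also takes part in the activation of pro-MMP2 at the cell surface (chromosome 11, 118301069 to 118355740), had 494, 571 and 526 FPKM in controls and 364, 370.3 and 350.3 FPKM with metformin. The groups did not overlap, and the log2 fold change was -0.55 (SE 0.097, adjusted p = 0.00870). Both calls were lost when any 1 of the samples with metformin was left out, with adjusted p-values of 0.0507 to 0.0593.

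Timp3, the inhibitor that stays bound to the matrix and also blocks ADAMTS4, ADAMTS5 and ADAM17 (chromosome 10, 86300372 to 86349506), rose. It had 5.30, 3.65 and 4.32 FPKM in controls and 17.1, 18.3 and 17.6 FPKM with metformin, so that each sample with metformin was above each control. The log2 fold change was 1.79 (SE 0.12, adjusted p = 0.000206), and it stayed between 1.69 and 1.91 in the 6 fits without 1 sample, all of which kept the call. Timp4, the least abundant inhibitor (chromosome 6, 115241892 to 115252205), had 0.985, 1.03 and 0.941 FPKM in controls and 0.316, 0.226 and 0.261 FPKM with metformin, on 29 to 127 reads per sample. It fell by 0.65 on the log2(FPKM + 1) scale (SE 0.096, adjusted p = 0.00439), a scale that understates changes at such low levels, since the mean FPKM was 3.68 times as high in controls.

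Timp1, Timp3 and Timp4 lie within the synapsin genes Syn1, Syn3 and Syn2 on the opposite strand, and counting by strand is not stated for these data. The host genes had 3.85 to 5.30 FPKM for Syn1, 0.0272 to 0.0312 for Syn3 and 0.705 to 0.849 for Syn2 in controls. With metformin they had 6.59 to 7.97, 0.0187 to 0.0251 and 0.398 to 0.717 FPKM. Hence Syn1 and Syn3 were at a small share of the level of the TIMP they contain, whereas Syn2 was at a level like that of Timp4, and reads of that pair could not be assigned with certainty. A Syn3 transcript also shares 1733 bases with that of Timp3.

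Added up, the TIMPs reached 1008 ± 122 FPKM (SD, n = 3) in controls and 653 ± 13.5 FPKM with metformin, without overlap between the groups. Timp1 and Timp2 carried nearly all of this sum in each sample. The share of Timp3 went from 0.450% ± 0.142 to 2.70% ± 0.077 of the TIMP sum. The MMPs summed to 1333 ± 58.3 FPKM in controls and 1002 ± 27.6 FPKM with metformin. Without Mmp13 the MMP sums were 802 ± 27.0 and 803 ± 26.3 FPKM, so the lower sum was that of Mmp13. The ratio of MMP to TIMP sums was 1.34 ± 0.20 in controls and 1.53 ± 0.014 with metformin, and the groups overlapped, because control replicate 1 had the highest ratio of the 6 samples (1.57). These sums are descriptions of RNA, with no test, and these data hold no values of protein or activity.

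**Figure D3:**
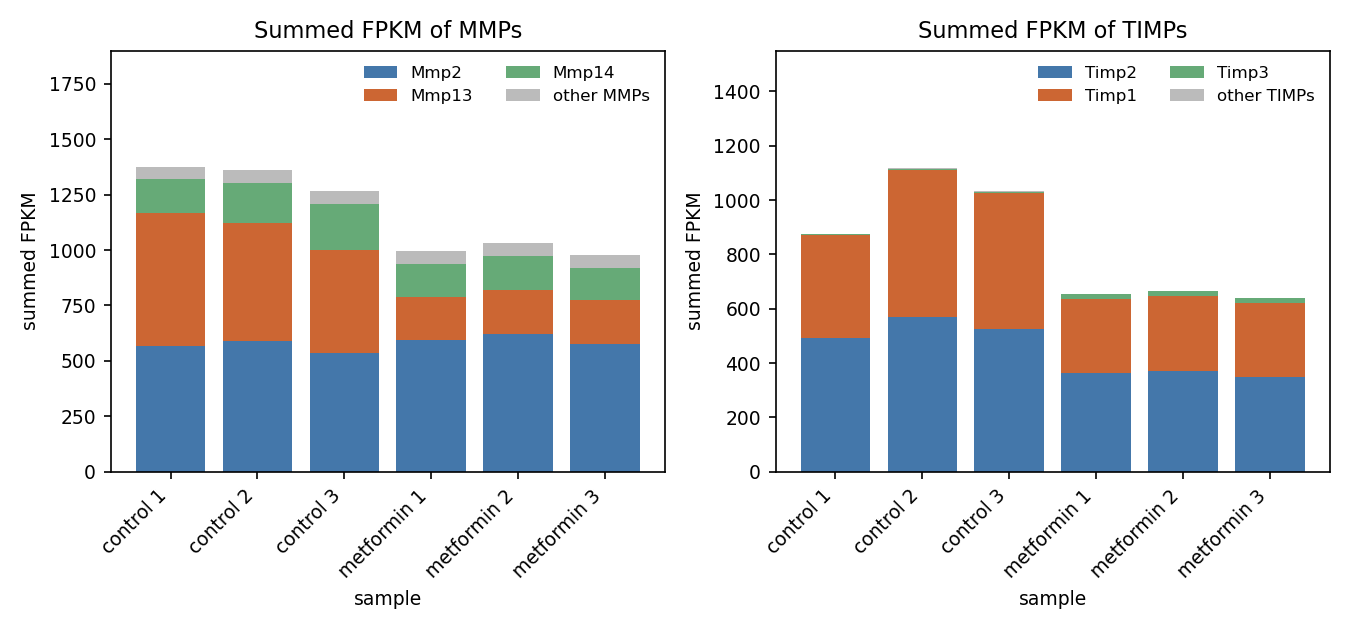
Summed FPKM of the MMPs (left) and TIMPs (right) in each of the 6 samples, as bars from 0 divided by gene. The Mmp13 part shrinks with metformin while the Mmp2 part keeps its height, and the TIMP bars are at 876 or more in controls and 666 or less with metformin.

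The gelatinase Mmp2, which cleaves denatured collagen and basement membrane collagen, had the highest mean FPKM of the members in both groups. It had 568, 588 and 537 FPKM in controls and 596, 619 and 575 FPKM with metformin, and the groups overlapped. The log2 fold change was 0.080 with a 95% confidence interval from -0.14 to 0.30 (adjusted p = 0.582). In controls Mmp2, Mmp13, Timp2 and Timp1 followed by mean FPKM in this order, with samples that overlapped one another, and Mmp13 was above Mmp2 in control replicate 1. With metformin the order was Mmp2, Timp2, Adamts1, Timp1, Mmp13 and Mmp14, in which only the neighbours Adamts1 and Timp1 overlapped. These 6 genes made up 94.9% ± 0.44 of the summed FPKM of all members in controls and 91.4% ± 0.11 with metformin. Mmp2 was 42.3% ± 0.92 of the MMP sum in controls and 59.5% ± 0.68 with metformin, and Mmp13 was 39.8% ± 3.64 and 19.9% ± 0.58.

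The other gelatinase, Mmp9, is known from osteoclasts and inflammatory cells and was near the limit of detection. It had 0, 3 and 2 reads in controls and 29, 24 and 20 reads with metformin. The groups were apart, and without the filter on low values its log2 fold change was 0.39 on the log2(FPKM + 1) scale (SE 0.045, adjusted p = 0.00592), where 5.77% of genes were called higher. Of the myeloid and osteoclast list, Csf1r, the receptor of macrophage colony-stimulating factor, had 1, 1 and 3 reads in controls and 6, 8 and 4 reads with metformin. Without the filter on low values Csf1r was not called (adjusted p = 0.183), and such counts are at the limit of what this depth can show. Ctsk and Cd68 were lower with metformin, Ctsk from 259 ± 14.8 to 155 ± 6.50 FPKM. Acp5 and Calcr had 0 reads in all samples, Ptprc had 6 reads in control replicate 2 and 0 elsewhere, and Adgre1 had 1 read in metformin replicate 1 and 0 elsewhere. The part of such cells in the values of Mmp9 was not tested.

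Among the membrane-type MMPs, which act at the cell surface, 3 of 6 were tested. Mmp14, the collagenase of the cell surface that activates pro-MMP2 (chromosome 14, 54431612 to 54445364), had 155, 184 and 209 FPKM in controls and 149, 150.3 and 143 FPKM with metformin. All controls lay above the samples with metformin, control replicate 1 by little, and the gene was not called (log2 fold change -0.30, SE 0.12, adjusted p = 0.141). Without control replicate 1 it was called lower, with a log2 fold change of -0.41 (adjusted p = 0.00555). Mmp16 rose from 2.51, 2.07 and 2.01 FPKM to 3.01, 3.31 and 3.44 FPKM, a log2 fold change of 0.41 (SE 0.097, adjusted p = 0.0255). Its groups were apart, but the call held in only 1 of the 6 fits with a sample omitted, that without control replicate 1. Mmp15 had 0.335, 0.477 and 0.820 FPKM in controls and 0.831, 0.893 and 0.732 FPKM with metformin, and its groups overlapped.

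Of the remaining tested MMPs none was called with all samples. Mmp11, a stromelysin made mainly by stromal cells, had 14.1, 24.8 and 25.0 FPKM in controls and 27.1, 28.7 and 28.6 FPKM with metformin. Control replicate 1 was far below the other controls, and the log2 fold change was 0.43 with a 95% confidence interval from -0.083 to 0.94 (adjusted p = 0.204), against 0.17 without that sample (adjusted p = 0.0439). Mmp19, Mmp28 and Mmp23 overlapped between the groups, with log2 fold changes of -0.077, -0.073 and -0.22 and adjusted p-values of 0.680, 0.710 and 0.337. Transcripts of Mmp19 and Mmp28 share 789 and 466 bases with the opposite-strand genes Tmem198b and 1700020L24Rik, so their reads are uncertain.

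**Figure D4:**
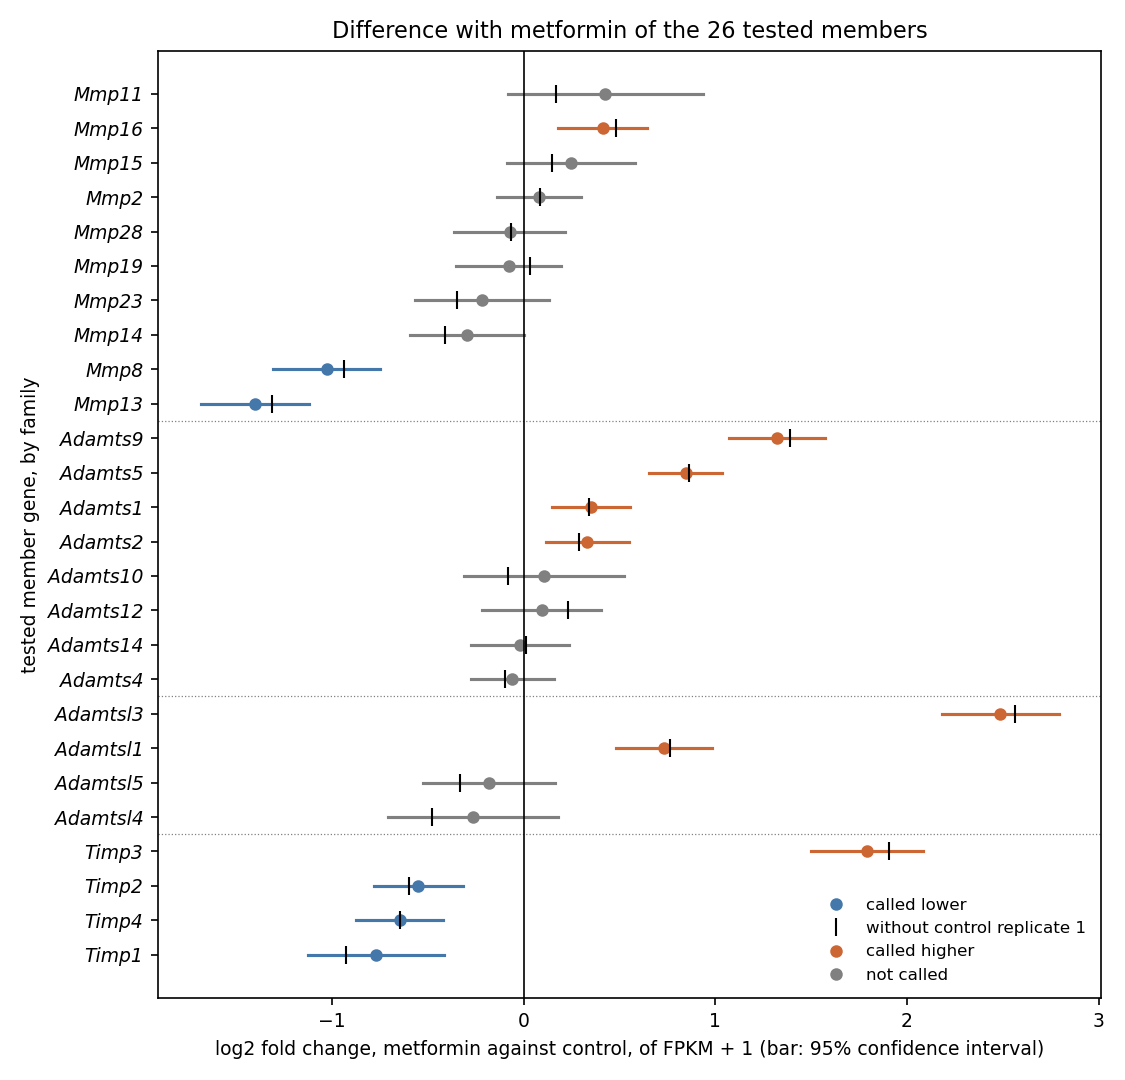
Log2 fold change with metformin of log2(FPKM + 1) for the 26 tested members by family, with 95% confidence intervals as bars, and a tick for the value without control replicate 1. Timp3 lies to the right of 0 and the other TIMPs to the left, and Mmp13 and Mmp8 are the MMPs farthest to the left.

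The ADAMTS proteinases moved upwards or were not called. Of 19 genes 8 were tested, of which 4 rose and 0 fell, against 13.2% and 9.28% of all tested genes. Adamts1 and Adamts2, 2 of the 4, lost their calls in the blocked fit and without the filter on low values. Adamts9, a proteinase of versican and aggrecan (chromosome 6, 92772699 to 92943492), had 2.31, 1.67 and 2.06 FPKM in controls and 6.65, 6.77 and 6.09 FPKM with metformin. The groups were far apart, with a log2 fold change of 1.32 (SE 0.10, adjusted p = 0.000341). Adamts5, the main aggrecanase of mouse cartilage (chromosome 16, 85856173 to 85901828), had 1.49, 1.40 and 1.39 FPKM in controls and 3.45, 3.22 and 3.41 FPKM with metformin. Its replicates lay close together in each group, with a log2 fold change of 0.85 (SE 0.079, adjusted p = 0.000648), and both genes kept their calls in each of the 6 fits without 1 sample.

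Adamts1, which cleaves versican and is the neighbour of Adamts5 on chromosome 16 (85793827 to 85803113), was the most abundant ADAMTS gene per length. It had 214, 212 and 227 FPKM in controls and 284, 281 and 270.4 FPKM with metformin, without overlap. Its log2 fold change was 0.35 (SE 0.085, adjusted p = 0.0274), and the call was lost without control replicate 2 and without any 1 of the samples with metformin (adjusted p = 0.0682 to 0.144). The aggrecanase Adamts4 had 19.1, 19.6 and 21.9 FPKM in controls and 18.9, 20.6 and 18.4 FPKM with metformin, a log2 fold change of -0.060 with a 95% confidence interval from -0.28 to 0.16 (adjusted p = 0.683). Of the 4 tested proteoglycan-cleaving genes 3 were called higher, against 13.2% of all tested genes. Among these 3 the call of Adamts1 was also lost in the blocked fit and without the filter on low values. Adamts8, Adamts15 and Adamts20 had 0 reads in every sample. Adamts1 made up most of the ADAMTS sum, which was 267 ± 11.98 FPKM in controls and 338 ± 9.52 FPKM with metformin.

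The procollagen N-proteinases trim the amino-terminal propeptides of fibrillar procollagens. Adamts2, the main enzyme for type I procollagen (chromosome 11, 50602084 to 50807573), had 12.1, 12.4 and 14.2 FPKM in controls and 17.1, 16.6 and 15.7 FPKM with metformin. The groups did not overlap, and the log2 fold change was 0.33 (SE 0.090, adjusted p = 0.0411). The call was lost with scaling to total reads (adjusted p = 0.0681), without control replicate 2 and without any 1 of the samples with metformin. Adamts14 was not called (log2 fold change -0.020, adjusted p = 0.918), and Adamts3 had 0 reads in every sample.

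Adamts12, which cleaves cartilage oligomeric matrix protein, and Adamts10, whose product binds fibrillin, overlapped between the groups, with log2 fold changes of 0.095 and 0.11 and adjusted p-values of 0.648 and 0.706. Without control replicate 1 Adamts12 was called higher (log2 fold change 0.23, adjusted p = 0.0443), while Adamts10 was -0.082 and not called. Adamts7, the close relative of Adamts12, stayed under the limit of 0.5 FPKM, with 14, 17 and 23 reads in controls and 49, 69 and 55 reads with metformin. All samples with metformin were above all controls, and without the filter on low values its log2 fold change was 0.34 on the log2(FPKM + 1) scale (SE 0.049, adjusted p = 0.0131). It overlaps Tbc1d2b on the opposite strand, which had 17.6 to 20.8 FPKM in controls and 19.4 to 21.5 FPKM with metformin.

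The largest log2 fold change of a tested member was that of an ADAMTS-like gene. Adamtsl3, whose product is a secreted glycoprotein of the matrix without protease activity (chromosome 7, 82335694 to 82614450), had 2.61, 1.71 and 2.54 FPKM in controls and 16.6, 17.99 and 17.2 FPKM with metformin. The lowest sample with metformin was well above the highest control. The mean went from 2.29 ± 0.50 FPKM (SD, n = 3) to 17.3 ± 0.67 FPKM, a log2 fold change of 2.49 (SE 0.13, adjusted p = 8.31e-05), which stayed between 2.35 and 2.56 whichever sample was omitted. Adamtsl1 (chromosome 4, 85514172 to 86428385) had 0.262, 0.149 and 0.211 FPKM in controls and 0.896, 1.14 and 0.985 FPKM with metformin, on 40 to 316 reads per sample. It too rose in all fits without 1 sample, with a log2 fold change of 0.73 (SE 0.10, adjusted p = 0.00380) and a ratio of mean FPKM of 4.85.

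Adamtsl4 and Adamtsl5, which bind fibrillin, did not rise. Adamtsl4 had 9.46, 14.9 and 16.0 FPKM in controls and 10.9, 11.2 and 10.2 FPKM with metformin, and Adamtsl5 had 7.68, 10.1 and 11.6 FPKM against 8.94, 8.01 and 8.31 FPKM. In both genes control replicate 1 was the lowest control, and they were not called (adjusted p = 0.356 and 0.415). Without that sample both were called lower, with log2 fold changes of -0.48 (adjusted p = 0.00188) and -0.33 (adjusted p = 0.0164). With all samples the log2 fold changes of Adamtsl4 and Adamtsl5 were -0.26 and -0.18, with confidence intervals that include 0. With the GC correction both were called lower (adjusted p = 0.00504 and 0.0229). With block and correction together Adamtsl4 was called lower (adjusted p = 0.0262) and Adamtsl5 was not (adjusted p = 0.0589). Thus the ADAMTS-like genes differed in direction, but calls of a fall depended on the fit. Adamtsl2 had at most 2 reads in a sample.

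Of the 24 members under the FPKM limit, 7 had 0 reads in all samples, 12 had at most 6 reads in a sample, and 5 had more than 10. Those 5 were Mmp9, Mmp10, Adamts7, Adamts6 and Mmp17. Adamts6 had 55 to 78 reads and Mmp17 had 34 to 62 reads per sample, with overlap between the groups and log2 fold changes of 0.047 and 0.048 without the filter. Those at 0 were Adamts3, Adamts8, Adamts15, Adamts19, Adamts20, Mmp7 and Mmp21. Mmp24, Mmp25, Adamts13, Adamts16, Adamts17 and Adamts18 were among those with few reads, and no difference was detectable for them at this depth.

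Genes that act on the same proteins were examined in lists chosen by function. Of 15 activators, inhibitors and uptake receptors outside the families 9 were tested, 3 rose and 0 fell (median log2 fold change 0.25), where 13.2% of all tested genes were called higher and 9.28% lower. Plau, the urokinase that generates plasmin, an activator of pro-MMPs, had 6.04, 5.28 and 3.68 FPKM in controls and 16.0, 15.9 and 17.2 FPKM with metformin (log2 fold change 1.55, adjusted p = 0.000829). Lrp1, the endocytic receptor that clears MMP13, ADAMTS enzymes and TIMP3 from the medium, had 59.3, 48.0 and 72.3 FPKM against 105, 112 and 96.7 FPKM (0.81, adjusted p = 0.0122). The call of Lrp1 was kept in 4 of the 6 fits with a sample omitted. Plau and Lrp1 were above every control in each sample with metformin. The third gene that rose was the proprotein convertase gene Pcsk6 (0.67, adjusted p = 0.00447), which passed the FPKM limit through the samples with metformin. The log2(FPKM + 1) scale understates its rise. Its mean FPKM was 4.29 times as high with metformin, against 3.28 times for Plau and 1.75 times for Lrp1. The membrane-anchored MMP inhibitor Reck (0.28, adjusted p = 0.0804), the MMP inducer Bsg (0.25, adjusted p = 0.113) and the convertase Furin (-0.16, adjusted p = 0.422) were not called. When control replicate 1 was omitted, Reck was called higher and Furin lower. Plg, the precursor of plasmin, and A2m, a plasma proteinase inhibitor, had averages of at most 0.0082 FPKM in either group.

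Among 9 ADAM proteinases, the membrane-bound relatives of the ADAMTS enzymes, 5 were tested, 2 rose and 0 fell, against the same 13.2% and 9.28%. Adam12 had 2.71, 2.07 and 1.92 FPKM in controls and 6.61, 7.67 and 6.30 FPKM with metformin (log2 fold change 1.29, adjusted p = 0.000692). Adam9 rose as well (0.62, adjusted p = 0.0119), but its call was kept in only 3 of the 6 fits with a sample omitted. Adam17, the shedding enzyme that TIMP3 inhibits, was not called (0.27, adjusted p = 0.0969). Adam10 (0.54, adjusted p = 0.0588) was higher in every sample with metformin and Adam15 (-0.024, adjusted p = 0.935) overlapped. In the fit without control replicate 1, Adam10 (0.72, adjusted p = 0.000721) and Adam17 were called higher and Adam15 lower (-0.21, adjusted p = 0.0318). Adam19 had 9, 3 and 10 reads in controls and 25, 38 and 26 reads with metformin, and was called higher without the filter on low values (adjusted p = 0.0306). A list of 7 genes held astacin proteinases, which remove the carboxy-terminal procollagen propeptides, and enhancers of that removal. Of these genes 2 were tested and 0 were called, with log2 fold changes of 0.030 for Bmp1 and 0.21 for Pcolce. The enhancer gene Pcolce2 stayed under the FPKM limit, with 4, 4 and 2 reads in controls and 59, 50 and 60 reads with metformin, and was called higher without the filter (0.63 on the log2(FPKM + 1) scale, adjusted p = 0.00228).

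Of 11 substrates 9 were tested, 4 rose and 1 fell, beside 13.2% and 9.28% of all tested genes. Versican (Vcan) had 7.33, 3.99 and 4.17 FPKM in controls and 11.7, 12.6 and 11.9 FPKM with metformin (log2 fold change 1.12, adjusted p = 0.00873), so the samples with metformin were higher throughout. The type I collagen genes Col1a1 and Col1a2 rose by 0.93 and 0.57 (adjusted p = 0.0230 and 0.00719), the fibrillin gene Fbn1 rose by 0.48 (adjusted p = 0.0273), and Col3a1 fell by 0.33 (adjusted p = 0.0464). The calls of Fbn1 and Col3a1 survived in 1 of the 6 fits with a sample omitted, that of Col1a1 in 3 and that of Col1a2 in 4. Without the filter on low values the calls of Col1a1, Col1a2, Col3a1 and Fbn1 were lost (adjusted p = 0.0626 to 0.186), and those of Col3a1 and Fbn1 were lost in the blocked fit as well. Col2a1, not called with all samples, was called lower without control replicate 1. Acan, the classical substrate of ADAMTS4 and ADAMTS5, averaged 0.0023 FPKM in controls and 0.013 FPKM with metformin and was not tested.

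**Figure D5:**
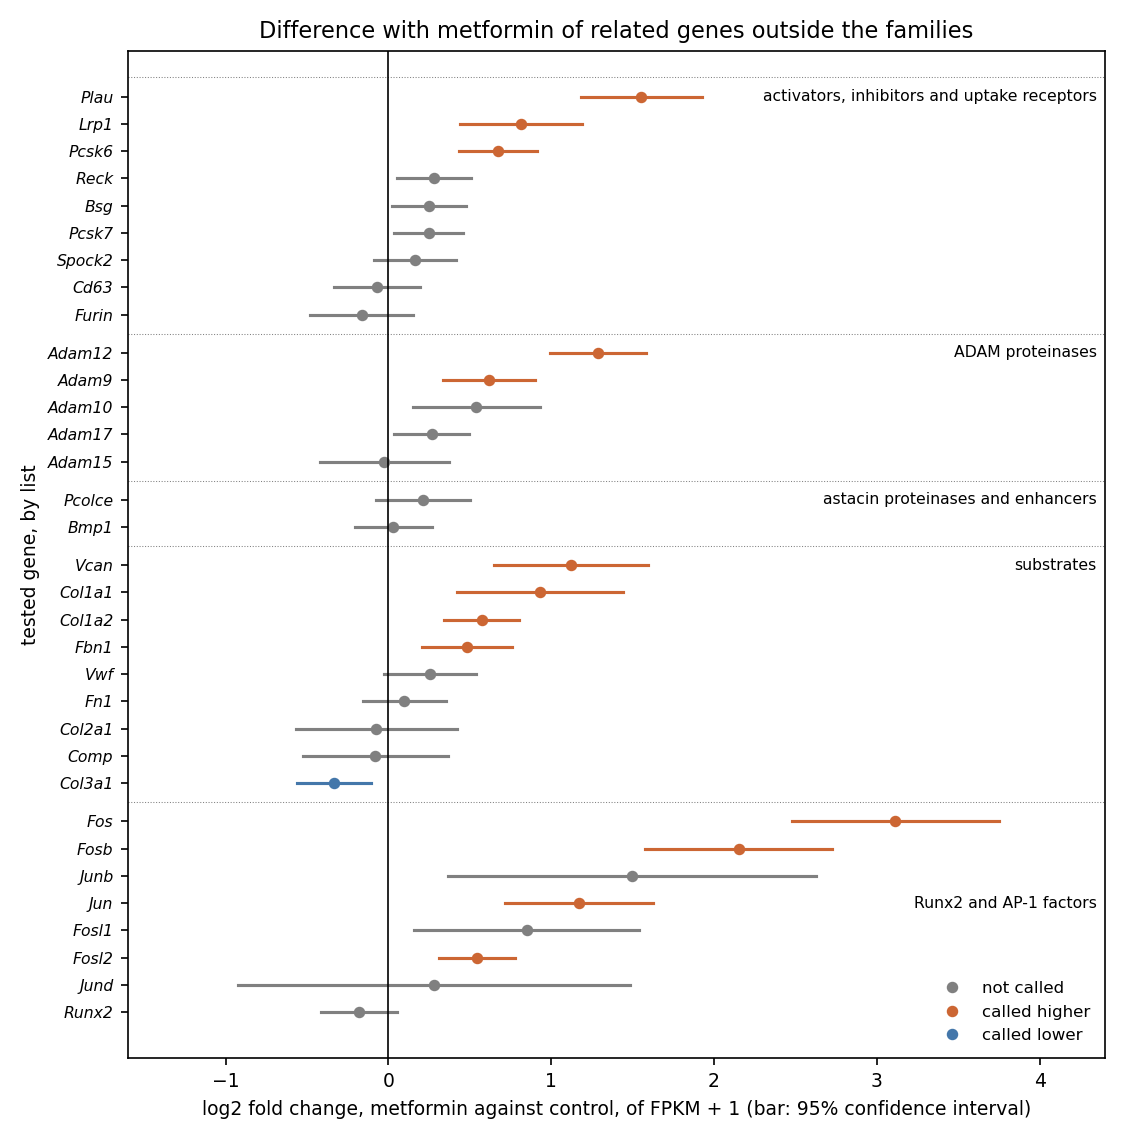
Log2 fold change with metformin of log2(FPKM + 1) for the tested genes of 5 lists outside the families, with 95% confidence intervals as bars. Fos and Fosb lie farthest to the right, Runx2 lies left of 0 with an interval that includes it, and Col3a1 is the only gene called lower.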

How the data were processed

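The authors deposited 1 table with a value per gene and sample. It names no unit. Multiplied by the listed gene length, 100% of values above 0 were whole multiples (within 0.01) of a step that is fixed in each sample, so the deposited values were taken as FPKM, that is, reads divided by gene length and library size. This is inferred from the values, as is the library size, which was proportional to median-of-ratios size factors. The submitters' processing notes name Bowtie 0.12.2 and the builds mm8 and mm9. The listed coordinates are those of GRCm38, since 53499 of 54532 identifiers, and 49 of the 50 members, have the same coordinates in GENCODE M21. Which aligner, build and counting tool made this table, and whether strand was used, is not given in the sources used here.

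Columns were matched to samples by label. Because the values are not counts, metformin (3 samples) was compared with control (3 samples) on log2(FPKM + 1) with limma-trend (limma 3.58.1, R 4.3.3) over genes with a mean of at least 0.5 FPKM. The Benjamini-Hochberg adjustment covered all tested genes. The members and lists were chosen with earlier results of these data known. Every tested member is named, called members are given in full, and genes of the other lists are named where called or as examples. Counts of reads were recovered from FPKM, gene length and the step, and 3 reads were taken as the floor. The depth was 18399861 to 22111790 reads per sample, and this floor covers counting error only. Alternatives were a pseudocount of 0.1, scaling to total reads, no filter, at least 10 reads in every sample, voom on recovered reads, a replicate block, a GC correction within libraries (spline with 5 degrees of freedom, GC content of the longest GENCODE transcript), block and correction together, and leaving out each sample. Shared transcript sequence was searched with BLAST+ 2.17.0 (95% identity over 200 bases). The main fit was run on simulated reads with the same dispersion in every gene, without an outlying sample or a GC shift. That simulation therefore cannot speak to these features of the data. Figures were drawn with matplotlib 3.10.9.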

Additional observations from a re-analysis of the deposited data

How the results depend on the processing

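With all samples 8 members were higher and 5 lower. No tested member changed sign with a pseudocount of 0.1, scaling to total reads, no filter, at least 10 reads in every sample, voom, the replicate block or the GC correction. Nothing in the labels ties samples of the same number to each other, and their deviations from the group means had correlations of -0.0533, 0.00027 and -0.0549. With the replicate block 5 members were higher, Adamts1, Adamts2 and Mmp16 losing their calls, and 698 of all genes were lower against 1177. With the GC correction 8 members were higher and 8 lower, with Mmp14, Adamtsl4 and Adamtsl5 added, and 2433 of all genes were lower, while 1888 were with the replicate block and GC correction together. The correction moved the log2 fold changes of shared genes by a median of -0.054. Over the fits that left out 1 sample, members called higher ranged from 5 to 10 and lower from 3 to 8, and all genes higher from 938 to 2969 and lower from 495 to 2590. Without control replicate 1 members were 10 higher and 8 lower, without control replicate 2 they were 5 and 5, and without metformin replicate 1, 2 or 3 they were 5 and 3 each. Signs changed in these fits for Adamts10 (-0.082 without control replicate 1, range to 0.27), Adamts14 (0.010 without control replicate 1 and 0.042 without metformin replicate 3, range from -0.091), Mmp19 (0.032 without control replicate 1, range from -0.14) and Mmp28 (0.025 without control replicate 3, range from -0.18), none of which was called in any of these fits. The cause was not tested. Members with fewer than 10 reads cannot show a difference at this depth.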
